A study of Mus musculus with 28 samples.

Results

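GFP+ and tdTomato+ luminal cells of the mammary gland were compared within each of 3 mice treated with estrogen plus progesterone (E+P), which gave 6 of the 28 RNA-seq libraries of the series. The members were chosen by their labels alone: luminal cells, E+P treatment, and the eGFP and tdTomato fractions of E+P mice 1, 2 and 3. The mice were adult C57BL/6 females carrying *PdgfrαCre* and the *R26mTmG* reporter, and the methods give an age of 10 to 12 weeks. In this reporter every cell carries membrane tdTomato until Cre removes it and turns on membrane GFP. A GFP+ luminal cell is therefore a cell that expressed Cre from the *Pdgfrα* promoter at any time of its life, or a descendant of such a cell, and a tdTomato+ luminal cell is any other, or one in which Cre did not act. Because Cre was constitutive, the label does not give the time of expression. Luminal cells were sorted as EpCAM+ CD49f-low cells after removal of CD31+, CD45+ and Ter119+ cells, and each library came from 1 mouse. Hormone was given as implanted pellets, which for wild-type mice of the study held 0.14 mg of estradiol with 14 mg of progesterone and lasted 14 days. No separate dose is stated for the reporter mice. The same fractions of 4 untreated mice, 8 further libraries, entered the same fit and serve below to ask which differences changed with E+P. Between 12353299 and 24583803 counts on genes were available per E+P luminal library. By these totals, without TMM, 3 counts corresponded to 0.122 to 0.243 CPM, a floor that covers counting error only. The luminal CPM below are counts relative to the TMM-adjusted depth of each library, in the usual CPM unit, so the floor is approximate for them.

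The luminal layer of the mammary epithelium holds hormone-sensing cells, which carry the estrogen receptor, the progesterone receptor and the prolactin receptor, and hormone receptor-negative cells, which include alveolar progenitors marked by KIT and the transcription factor ELF5. Progesterone acts on receptor-positive cells, which then release paracrine factors such as RANKL (*Tnfsf11*), WNT4 and amphiregulin (*Areg*) that stimulate division of receptor-negative neighbours. Alveolar cells go on to make milk proteins under prolactin and STAT5. In sorted bulk samples, fewer cells of a kind and less RNA per cell cannot be told apart, and this holds for each difference below.

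The keratins and junction genes that define luminal cells were abundant in all 6 libraries, with *Krt8* at 1444, 1257 and 1646 CPM in GFP+ cells and at 2624, 2218 and 2343 CPM in tdTomato+ cells of mice 1, 2 and 3, against at most 0.734 CPM for the basal keratin gene *Krt5* and 31.9 CPM for *Krt17*. The basal keratin gene *Krt14* was at 14.3, 8.62 and 8.67 CPM in GFP+ and 3.12, 2.57 and 1.81 CPM in tdTomato+ cells and passed as higher in GFP+ cells (2.06 ± 0.33, adjusted p = 9.6e-04). The summed level of 8 luminal markers was 4382 to 5689 CPM in GFP+ and 8365 to 8962 CPM in tdTomato+ cells. Of the 8, 7 passed the test as lower in GFP+ cells (3 under scaling by library size alone), against 15.2% of all genes tested. The 9 basal markers summed to 141 to 159.6 CPM in GFP+ and 44.2 to 77.0 CPM in tdTomato+ cells, of which *Oxtr* alone gave 80.3 to 113 and 4.04 to 14.1 CPM. Without *Oxtr* the other 8 overlapped, at 40.2 to 60.8 CPM in GFP+ and 40.1 to 62.9 CPM in tdTomato+ cells. Of the 9, 3 passed as higher in GFP+ cells and 1, *Trp63*, as lower (-1.66 ± 0.26, adjusted p = 8.6e-04), against 12.1% and 15.2% of all genes tested. Fibroblast markers (10 genes) summed to 25.3 to 28.9 CPM in GFP+ and 35.1 to 65.5 CPM in tdTomato+ luminal cells. In stroma of the same mice, scaled by library size alone, they summed to 46584 to 53333 CPM in GFP+ and 1690.1 to 2268 CPM in tdTomato+ cells. The higher sum in tdTomato+ luminal cells was that of *Dcn* (24.8, 38.0 and 57.4 CPM). The other 9 genes summed to 23.0 to 23.2 CPM in GFP+ and 8.08 to 11.2 CPM in tdTomato+ luminal cells. Among them *Col1a1*, *Col1a2* and *Col3a1* lay higher in GFP+ cells, *Fbln1* and *Thy1* lay lower, and *Pdgfra* overlapped, all without passing. Of the 10, 0 passed as higher in GFP+ cells and 1, *Dcn*, as lower, against 12.1% and 15.2% of all genes tested. Pericyte and smooth muscle markers (8 genes) summed to 165 to 175 and 130.2 to 211 CPM, mostly *Notch3*, and without it to 20.4 to 33.3 CPM in GFP+ and 7.65 to 8.45 CPM in tdTomato+ cells, although 0 of the 8 passed. Immune, erythroid, adipocyte and skeletal muscle markers summed to at most 9.30 CPM each. The 7 endothelial markers summed to 9.17 to 34.2 CPM in GFP+ and 249 to 269 CPM in tdTomato+ cells, which was almost wholly *Vwf* (253, 247 and 267 CPM in tdTomato+ cells), since the other 6 lay at 2.63 CPM or less. RNA composition also differed: mitochondrially encoded genes took 13.7% to 15.9% of counts in GFP+ and 10.7% to 12.8% in tdTomato+ cells, and *Malat1*, a nuclear long noncoding RNA, took 1.1% to 1.25% and 3.1% to 3.79%. The groups did not overlap in either share, and the part of these shares and marker levels in the results below was not tested.

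GFP+ and tdTomato+ luminal cells differed in a large share of the transcriptome after E+P. Of 16538 genes tested with edgeR's quasi-likelihood F-test with the mouse as a block, 4513 (27.3%) passed a Benjamini-Hochberg adjusted p of 0.01, of which 1994 (12.1% of genes tested) were higher and 2519 (15.2%) were lower in GFP+ cells. Of the 4513, 3026 (18.3% of genes tested) differed at least 2-fold. All 4513 lay on the same side in 3 of 3 mice, which is no separate support, since the test was paired within these mice. Among all 16538 genes, called or not, 5578 were higher and 5620 lower in GFP+ cells in 3 of 3 mice. The levels of the subsets did not overlap in 9070 genes (54.8%). Across genes, which are not independent replicates, log2 CPM of libraries of the same subset had a Pearson's r of 0.966 to 0.98, and that of libraries of different subsets had one of 0.865 to 0.906. Scaling by library size alone, without TMM, shifted the median difference of all genes from 0.00 to 0.20 (log2) and turned the split of calls to 2950 higher and 1824 lower, so differences are given relative to the TMM-scaled median of 0.00. The count of calls fell to 3000, 1853 and 1949 without mouse 1, 2 or 3, each of which leaves a pair of E+P mice. An exact test by sign flips within 3 mice cannot go below p = 0.25, so that no single gene can pass on its own and each call leans on the spread estimated over all genes and all 7 mice.

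Hormone receptors were much lower in GFP+ cells. Of the 11 hormone receptor and hormone-sensing cell genes, 10 passed the test as lower in GFP+ cells and 0 as higher, against 15.2% and 12.1% of all genes tested, and the median difference was -3.78 against 0.00 over all genes. *Esr1* (ENSMUSG00000019768.16, chr10:4611593-5005614 in GRCm38), which encodes estrogen receptor alpha, was at 16.4, 14.7 and 13.5 CPM in GFP+ and 85.5, 149.2 and 155 CPM in tdTomato+ cells of mice 1, 2 and 3, a log2 difference of -3.09 ± 0.46 (SE, adjusted p = 0.0018). *Pgr* (ENSMUSG00000031870.16, chr9:8899833-8968611), the progesterone receptor, was at 68.9, 42.0 and 24.7 CPM against 583, 822 and 812 CPM (-4.14 ± 0.67, adjusted p = 0.0024). The highest GFP+ library lay far below the lowest tdTomato+ library for both receptors. *Prlr* (ENSMUSG00000005268.20, chr15:10177238-10349180), the prolactin receptor, was at 171, 128 and 116 CPM in GFP+ and 1101, 1815 and 1906 CPM in tdTomato+ cells (-3.52 ± 0.58, adjusted p = 0.0027). Per kilobase of exon, the levels in tdTomato+ cells were 105 CPM for *Prlr*, 86.5 CPM for *Pgr* and 9.50 CPM for *Esr1*, so that the estrogen receptor was the least abundant of these receptors per length. *Foxa1*, a pioneer factor that opens chromatin for the estrogen receptor, was at 19.7, 10.4 and 5.92 CPM against 163, 186 and 206 CPM (-4.09 ± 0.64, adjusted p = 0.0021). *Greb1*, an estrogen-induced cofactor of the receptor, differed by -4.22 ± 0.60 (adjusted p = 0.0015), and *Ly6a*, which encodes the surface antigen SCA1 carried by hormone-sensing luminal cells, by -4.29 ± 0.65 (adjusted p = 0.0018). In GFP+ cells, mouse 1 gave the highest level of *Esr1*, *Pgr*, *Prlr*, *Foxa1*, *Greb1* and *Ly6a*. Without mouse 1, 2 or 3, 8, 1 and 2 of the 10 genes still passed. Leaving out mouse 2 or 3 thus ended most of these calls, without a change of direction. With all mice kept but no low-count filter, 1 of the 10 passed, at an unchanged median of -3.78.

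Targets of the ovarian hormones and paracrine mediators followed the receptors in most but not all cases. Of 11 genes, 7 were lower in GFP+ cells, 1 was higher and 3 did not pass (median -2.83, 72.7% called against 27.3% of all genes). *Tnfsf11* (ENSMUSG00000022015.8, chr14:78277445-78308043), which encodes RANKL, was at 19.7, 2.13 and 1.33 CPM in GFP+ and 162, 131 and 139 CPM in tdTomato+ cells (-5.08 ± 0.82, adjusted p = 0.0062). *Areg*, an EGF receptor ligand downstream of estrogen, was at 47.5, 29.1 and 26.7 CPM against 350.1, 387 and 501 CPM (-3.62 ± 0.53, adjusted p = 0.0016). *Wnt4*, a progesterone-induced Wnt ligand, was at 27.2, 7.62 and 7.70 CPM against 143, 97.7 and 118 CPM (-3.33 ± 0.57, adjusted p = 0.0032). The GFP+ cells of mouse 1 again held the most of *Tnfsf11*, *Areg* and *Wnt4*, and the subsets stayed apart in all 3 mice. *Calca*, the calcitonin gene, was at 68.9, 2.66 and 4.31 CPM against 982, 198 and 209 CPM (-5.11 ± 0.57, adjusted p = 9.2e-04). *Zbtb16*, a transcription factor induced by progesterone and glucocorticoids, differed by -4.05 ± 0.48 (adjusted p = 6.4e-04). *Ccnd1*, which encodes the G1 cyclin D1, was the member that went the other way, at 337, 328 and 306 CPM in GFP+ and 61.5, 60.1 and 39.4 CPM in tdTomato+ cells (2.62 ± 0.15, adjusted p = 1.3e-05). *Igf2* and *Cxcl14* were listed at 0 in some libraries and did not pass, and *Adamts18*, a progesterone target in stromal remodelling, did not pass either (3.15 ± 0.76, adjusted p = 0.015). Of the 8 calls, 7, 4 and 4 were kept without mouse 1, 2 or 3, and 3 without the low-count filter, and 0 changed direction.

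Genes of luminal progenitors were higher in GFP+ cells. Of 14 genes, 13 passed as higher and 1 as lower, against 12.1% and 15.2% of all genes tested, with a median difference of 2.55. *Elf5* (ENSMUSG00000027186.14, chr2:103411688-103450989), the transcription factor that specifies alveolar cells, was at 185, 185 and 183 CPM in GFP+ and 19.3, 22.1 and 10.9 CPM in tdTomato+ cells (3.46 ± 0.31, adjusted p = 1.5e-04). *Kit* (ENSMUSG00000005672.12, chr5:75574916-75656722), a receptor tyrosine kinase used to sort luminal progenitors, was at 825, 709 and 707 CPM against 103, 93.9 and 41.4 CPM (3.33 ± 0.48, adjusted p = 0.0015). The 3 GFP+ libraries were nearly level for *Elf5*, and tdTomato+ cells of mouse 3 were lowest for both genes. *Ehf*, an ETS factor of the same family as *Elf5*, was at 970.3, 1075 and 1291 CPM against 192, 198 and 137.5 CPM (2.67 ± 0.22, adjusted p = 5.1e-05). *Sox10*, a transcription factor of fetal and adult mammary progenitors, was at 175, 218 and 184 CPM against 23.0, 24.7 and 13.6 CPM (3.28 ± 0.36, adjusted p = 4.5e-04). *Hey1*, a target of Notch, was at 22.5, 71.0 and 61.6 CPM against 2.48, 4.26 and 3.45 CPM (3.86 ± 0.37, adjusted p = 1.9e-04), with mouse 1 the lowest in both subsets. *Cd14* and *Aldh1a3*, which are also used to mark progenitors, differed by 2.93 ± 0.38 (adjusted p = 8.5e-04) and 2.11 ± 0.47 (adjusted p = 0.0096). *Elf3*, an epithelial ETS factor, was the member that was lower in GFP+ cells, at 54.5, 52.6 and 56.5 CPM against 105, 107 and 148.6 CPM (-1.12 ± 0.16, adjusted p = 4.5e-04). Of the 14 calls, 11, 10 and 10 were kept without mouse 1, 2 or 3.

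**Figure D1:**
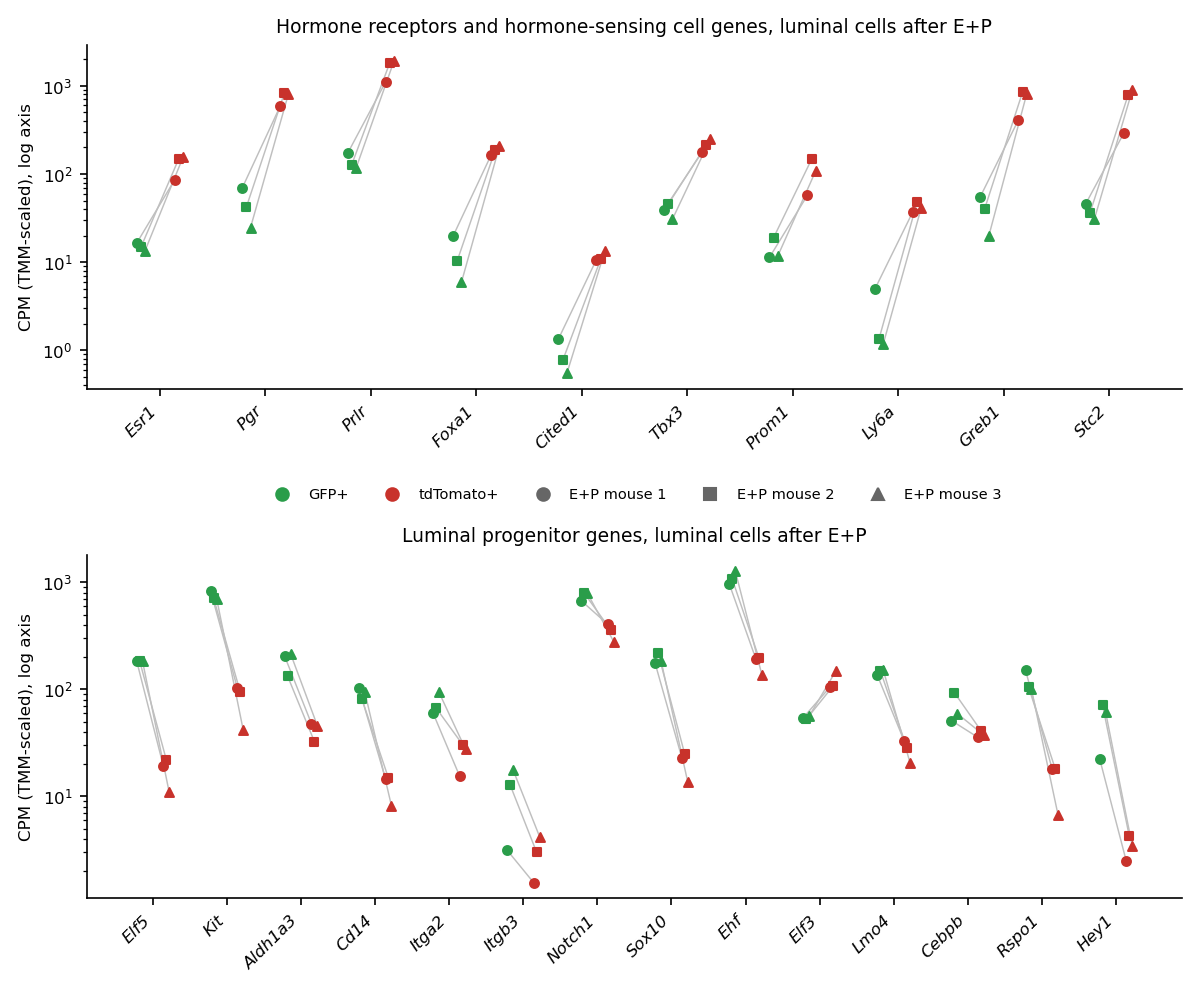
CPM (log axis) of 10 of the 11 hormone receptor and hormone-sensing cell genes (top) and the 14 luminal progenitor genes (bottom) in GFP+ (green) and tdTomato+ (red) luminal cells after E+P, with a symbol for each of the 3 mice and a grey line joining the fractions of the same mouse. All 10 hormone-sensing genes shown run upward from GFP+ to tdTomato+ in all 3 mice, and 13 of the 14 progenitor genes run downward.

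**Figure D2:**
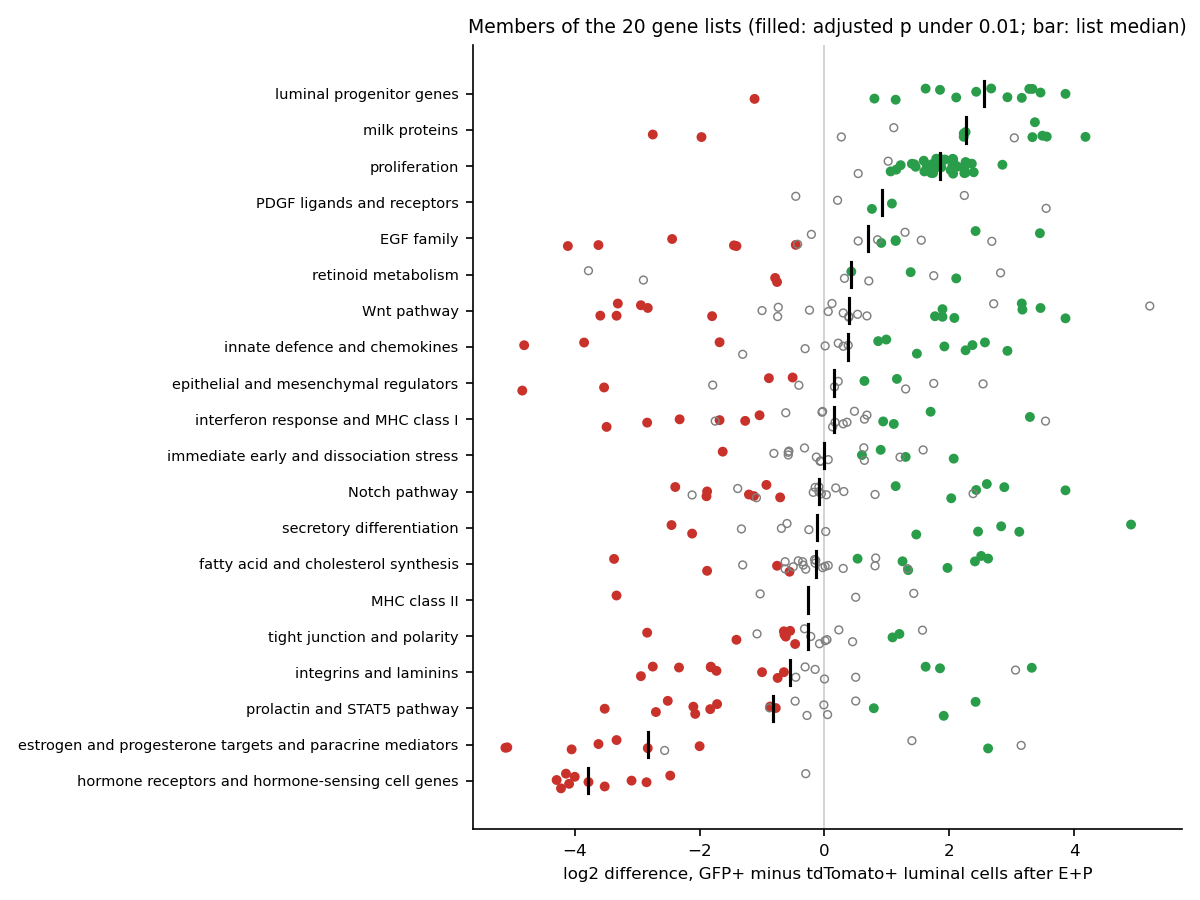
The log2 difference between GFP+ and tdTomato+ luminal cells after E+P for each tested member of the 20 gene lists, by list, with filled points at an adjusted p under 0.01, open points above it and a black bar at the list median. List medians run from -3.78 for hormone-sensing genes to 2.55 for luminal progenitor genes.

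Milk protein genes were mostly higher in GFP+ cells, but the casein genes went in both directions. Of 15 genes, *Wap* and *Glycam1* fell below the count filter, with at most 3 and 25 counts in an E+P luminal library. Of the 13 tested, 8 were higher in GFP+ cells, 2 lower and 3 did not pass (median 2.26, 76.9% called against 27.3% of all genes). The 5 casein genes lie in the same cluster on chromosome 5. *Csn1s1* (ENSMUSG00000070702.9, chr5:87666208-87682578) was at 775, 102 and 115 CPM in GFP+ and 62.3, 6.05 and 3.67 CPM in tdTomato+ cells (4.18 ± 0.30, adjusted p = 5.3e-05). *Csn2* (ENSMUSG00000063157.9, chr5:87692624-87699630), which encodes beta-casein, was at 186, 1.18 and 3.39 CPM against 20.0, 0.0968 and 0.106 CPM (3.49 ± 0.28, adjusted p = 9.2e-05). *Csn3* (ENSMUSG00000001622.15, chr5:87925579-87932665), which encodes kappa-casein, was at 360.2, 416 and 449.7 CPM against 47.4, 47.7 and 26.5 CPM (3.37 ± 0.49, adjusted p = 0.0016). Mouse 1 stood far above mice 2 and 3 in both subsets for *Csn1s1* and *Csn2*, to the point that its tdTomato+ cells held more *Csn2* than the GFP+ cells of mice 2 and 3, whereas *Csn3* varied less between mice. The *Csn2* levels in tdTomato+ cells of mice 2 and 3 lay under the floor of 3 counts, so the size of that difference rests mainly on mouse 1. *Csn1s2a* (ENSMUSG00000061937.7, chr5:87774567-87788797) went the other way, at 23.6, 0.650 and 0.825 CPM in GFP+ and 85.0, 3.20 and 3.08 CPM in tdTomato+ cells (-1.97 ± 0.22, adjusted p = 3.7e-04). Its neighbour *Csn1s2b* (ENSMUSG00000061388.11, chr5:87808082-87824426) was at 3.08, 0.472 and 0.413 CPM against 10.5, 4.55 and 4.62 CPM (-2.75 ± 0.59, adjusted p = 0.0044). These calls rest on the pairing within mice. Without the block *Csn1s1*, *Csn2*, *Csn1s2a* and *Csn1s2b* had adjusted p values of 0.2, 0.38, 0.43 and 0.033, and 5 of the 10 calls of the list were kept, with the same direction. *Csn1s2a* also missed the threshold without mouse 1 (-2.06, adjusted p = 0.034) and in DESeq2 (-2.00, adjusted p = 0.056), and *Csn1s2b* missed it without any one of the 3 mice (adjusted p = 0.013, 0.043 and 0.045). Among the other milk genes, *Trf* (transferrin) differed by 3.56 ± 0.53 (adjusted p = 0.0018), *Ltf* (lactoferrin) by 2.26 ± 0.41 (adjusted p = 0.0043) and *Pigr*, the receptor that carries immunoglobulin into milk, by 3.33 ± 0.38 (adjusted p = 1.7e-04). *Mfge8*, a milk fat globule protein, was at 484, 441 and 464 CPM against 496, 367 and 309.6 CPM and did not pass (0.27 ± 0.33, adjusted p = 0.56). Of the 10 calls, 5, 6 and 4 were kept without mouse 1, 2 or 3.

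Because neighbouring casein genes differed in opposite directions, the 250 bases before the RefSeq start of 3 of them are shown (GRCm38.p6, 5′ to 3′ on the strand of the gene, the bases after the start left out). Capitals mark matches to TTCNNNGAA, the palindromic core bound by STAT5 and other STAT factors, searched on both strands. The letters were found in 7.02% of the 32851 RefSeq promoters of this length, and in 3 of the 12 milk genes with a promoter in the table (*Csn1s1*, *Csn2* and *Glycam1*). *Csn3* and *Csn1s2b* have no entry there. The windows are chr5:87665958-87666207 (plus strand), chr5:87699426-87699675 (minus strand) and chr5:87774200-87774449 (plus strand).
Csn1s1: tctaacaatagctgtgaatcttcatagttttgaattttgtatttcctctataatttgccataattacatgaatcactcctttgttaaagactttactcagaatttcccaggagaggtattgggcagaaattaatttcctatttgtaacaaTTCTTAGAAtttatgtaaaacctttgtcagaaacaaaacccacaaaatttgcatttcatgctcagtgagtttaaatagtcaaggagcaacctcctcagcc
Csn2: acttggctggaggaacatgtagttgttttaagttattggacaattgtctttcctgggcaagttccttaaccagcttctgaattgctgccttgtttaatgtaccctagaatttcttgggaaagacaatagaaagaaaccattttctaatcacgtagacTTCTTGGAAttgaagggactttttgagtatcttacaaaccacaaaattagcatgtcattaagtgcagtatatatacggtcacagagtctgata
Csn1s2a: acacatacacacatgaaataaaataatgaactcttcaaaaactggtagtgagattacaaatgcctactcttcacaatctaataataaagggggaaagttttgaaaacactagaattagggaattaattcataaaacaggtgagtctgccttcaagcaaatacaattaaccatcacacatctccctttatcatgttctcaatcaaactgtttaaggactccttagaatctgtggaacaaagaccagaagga
The *Csn1s1* and *Csn2* windows, of genes that were higher in GFP+ cells, each hold 1 match, at 100 and 93 bases before the start, and the *Csn1s2a* window, of a gene that was lower, holds 0. These RefSeq windows are not alike against the GENCODE coordinates above. The *Csn1s2a* window ends ahead of the GENCODE start of the gene, and the bases between were not searched. That of *Csn2* reaches into its GENCODE gene, and that of *Csn1s1* ends at the GENCODE start. A match is a description of letters and not a bound site.

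**Figure D3:**
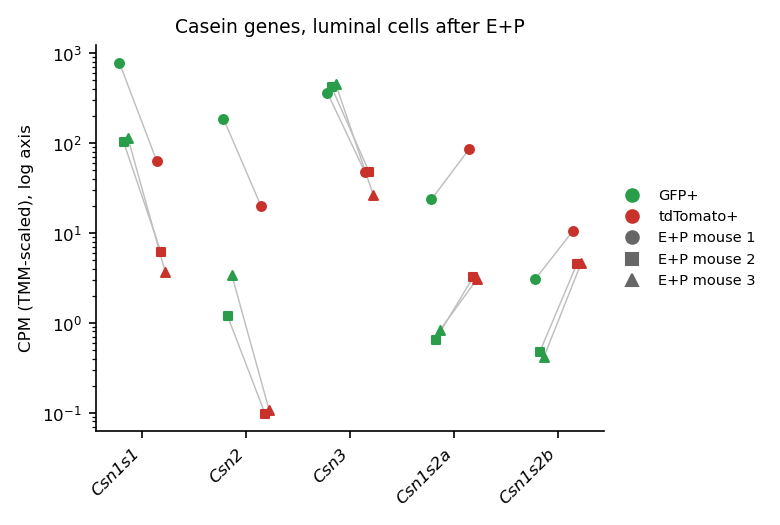
CPM (log axis) of the 5 casein genes in GFP+ (green) and tdTomato+ (red) luminal cells after E+P, with a symbol for each of the 3 mice and a line joining the fractions of the same mouse. *Csn1s1*, *Csn2* and *Csn3* run downward from GFP+ to tdTomato+ and *Csn1s2a* and *Csn1s2b* run upward in 3 of 3 mice, while mouse 1 lies above the others for 4 of the 5 genes.

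Secretory differentiation genes were split. Of 13 genes, *Atp2b2* was below the filter. Of the 12 tested, 5 were higher in GFP+ cells, 2 lower and 5 did not pass (median -0.11, 58.3% called against 27.3% of all genes). *Btn1a1*, which encodes butyrophilin of the milk fat globule, was at 53.0, 23.4 and 28.9 CPM in GFP+ and 5.79, 4.60 and 1.86 CPM in tdTomato+ cells (3.12 ± 0.42, adjusted p = 0.0011). *Xdh*, its partner in fat globule release, differed by 2.46 ± 0.45 (adjusted p = 0.0042), and *Tfap2c*, a luminal AP-2 transcription factor, by 2.83 ± 0.36 (adjusted p = 8.4e-04). The members lower in GFP+ cells were the folate receptor gene *Folr1*, at 9.45, 10.4 and 9.22 CPM against 31.0, 48.5 and 48.8 CPM (-2.12 ± 0.18, adjusted p = 4.5e-05), and the water channel gene *Aqp5*, at 24.2, 32.8 and 28.7 CPM against 90.7, 209 and 193 CPM (-2.45 ± 0.33, adjusted p = 9.6e-04). Of the 7 calls, 5, 3 and 3 were kept without mouse 1, 2 or 3.

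In the prolactin and STAT5 pathway, several receptor and inhibitor genes were lower in GFP+ cells, others were not, and the STAT5 genes themselves did not pass. Of 18 genes, 9 were lower, 3 were higher and 6 did not pass (median -0.83, 66.7% called against 27.3% of all genes). The list is broader than prolactin signalling. Its lower members include *Il6st*, *Il4ra*, *Il13ra1* and *Gata3*, and also *Prlr*, which is counted with the hormone receptors too. *Jak2*, the kinase bound to the prolactin receptor, was at 142, 91.8 and 113 CPM in GFP+ and 638, 595 and 719 CPM in tdTomato+ cells (-2.51 ± 0.16, adjusted p = 1.9e-05). *Socs2*, a STAT5-induced inhibitor of this pathway, was at 60.5, 24.4 and 27.2 CPM against 304, 179.7 and 202 CPM (-2.70 ± 0.44, adjusted p = 0.0027), and *Socs3* differed by -2.07 ± 0.31 (adjusted p = 0.0015). The inhibitor genes *Cish* (0.50 ± 0.20, adjusted p = 0.075) and *Socs1* (-0.88 ± 0.69, adjusted p = 0.34) and the growth hormone receptor gene *Ghr* (0.05 ± 0.17, adjusted p = 0.84) did not pass. *Stat5b* was at 148, 162 and 159 CPM against 144, 162 and 167.9 CPM (-0.01 ± 0.09, adjusted p = 0.92), and *Stat5a* was at 279, 321 and 264 CPM against 318, 416 and 474 CPM (-0.47 ± 0.14, adjusted p = 0.022). The levels of both STAT5 genes overlapped between subsets. The receptor subunits *Il4ra* and *Il13ra1*, through which interleukins 4 and 13 act, differed by -1.72 ± 0.16 (adjusted p = 5.5e-05) and -2.10 ± 0.15 (adjusted p = 2.7e-05). The members higher in GFP+ cells were *Nfib*, a factor that binds milk gene promoters with STAT5, at 882, 1040.1 and 1093 CPM against 225, 330.0 and 256 CPM (1.91 ± 0.20, adjusted p = 1.3e-04), *Stat3* (0.79 ± 0.12, adjusted p = 6.0e-04) and the neuregulin receptor gene *Erbb4* (2.42 ± 0.53, adjusted p = 0.0094). Of the 12 calls, 10, 7 and 8 were kept without mouse 1, 2 or 3.

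Of 29 lipid synthesis genes, 7 were higher in GFP+ cells, 4 were lower and 18 did not pass (median -0.14), so that 37.9% were called against 27.3% of all genes. *Scd1*, which makes monounsaturated fatty acids, was at 338, 580.4 and 866 CPM in GFP+ and 78.3, 101 and 93.6 CPM in tdTomato+ cells (2.62 ± 0.27, adjusted p = 2.6e-04). Its paralog *Scd2* was at 77.0, 97.2 and 113 CPM against 286, 394 and 372 CPM (-1.88 ± 0.38, adjusted p = 0.0069). These desaturase paralogs, whose similar stretches could share reads, differed in opposite directions with no overlap between the subsets in either gene. *Elovl6*, a fatty acid elongase, differed by 2.41 ± 0.20 (adjusted p = 3.5e-05), *Fads2* by 2.51 ± 0.39 (adjusted p = 0.002) and *Dgat2*, which makes triglycerides, by -3.37 ± 0.72 (adjusted p = 0.0083). *Fasn*, the fatty acid synthase, was at 265, 349 and 292 CPM against 230.1, 256 and 246 CPM and did not pass (0.30 ± 0.12, adjusted p = 0.078). Scaling by library size alone gave 9 higher and 1 lower, and without mouse 1, 2 or 3, 5, 3 and 4 of the 11 calls were kept.

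Proliferation genes were higher in GFP+ cells almost throughout. Of 39 genes, 37 passed as higher, 0 as lower, and *Ccne1* and *Ccne2* did not pass, against 12.1% of all genes tested that were higher, and the median difference was 1.85. *Mki67* (ENSMUSG00000031004.8, chr7:135689784-135716361), a marker of cycling cells, was at 1428, 1269 and 1218 CPM in GFP+ and 303, 263 and 193 CPM in tdTomato+ cells (2.39 ± 0.28, adjusted p = 4.7e-04). *Top2a*, the topoisomerase of dividing cells, was at 335, 291 and 272 CPM against 83.8, 70.6 and 53.5 CPM (2.13 ± 0.22, adjusted p = 1.5e-04). Within each subset, mouse 1 was highest and mouse 3 lowest for both genes. The replicative helicase genes *Mcm2* to *Mcm7* all passed, from 1.06 ± 0.10 for *Mcm7* (adjusted p = 7.3e-05) to 2.26 ± 0.17 for *Mcm5* (ENSMUSG00000005410.6, chr8:75109569-75128439, adjusted p = 3.2e-05). *Ttk*, a kinase of the spindle checkpoint, had the largest difference of the list, at 21.7, 17.3 and 17.4 CPM against 3.40, 2.57 and 1.97 CPM (2.85 ± 0.54, adjusted p = 0.0031). *Foxm1*, which drives mitotic genes, differed by 2.05 ± 0.33 (adjusted p = 0.0012) and *E2f1*, which drives genes of DNA synthesis, by 2.09 ± 0.45 (adjusted p = 0.0049). *Ccne2* was at 6.30, 4.96 and 3.30 CPM against 2.39, 2.76 and 1.86 CPM (1.02 ± 0.43, adjusted p = 0.085). Without mouse 1, 2 or 3, 22, 20 and 20 of the 37 calls were kept, without the mouse block 20 were kept, and 0 changed direction.

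Fewer of these genes passed in untreated mice, where 6 of the 39 genes passed as higher in GFP+ cells and 0 as lower, against 7.75% and 8.85% of all genes tested, with a median of 0.66. The test of the interaction, which asks whether the GFP+ against tdTomato+ difference itself differs between E+P-treated and untreated mice, passed for 7 of the 39 genes with a larger difference after E+P and for 0 with a smaller one, against 1.07% and 1.81% of all genes. These 7 were *Aurka*, *Cenpa*, *Mcm2*, *Mcm3*, *Mcm4*, *Mcm5* and *Mcm6*, and each of them missed the threshold without E+P mouse 2 and without E+P mouse 3. *Mcm6* (ENSMUSG00000026355.11, chr1:128331590-128359664) was at 191, 169.5 and 147 CPM in GFP+ and 59.3, 52.7 and 40.5 CPM in tdTomato+ cells after E+P (1.74 ± 0.18, adjusted p = 1.0e-04), and at 58.6, 60.3, 95.3 and 79.7 CPM against 96.3, 113, 107 and 75.0 CPM in untreated mice (-0.42, adjusted p = 0.057), an interaction of 2.17 (adjusted p = 0.0011) that missed the threshold without E+P mouse 2 or 3 (adjusted p = 0.012 and 0.011). In untreated mice the subsets overlapped for *Mcm6*, and after E+P they did not. *Mki67* was at 44.7, 60.5, 284 and 191 CPM in GFP+ and 16.9, 64.5, 102 and 97.6 CPM in tdTomato+ cells of untreated mice, and its interaction of 1.44 did not pass (adjusted p = 0.05).

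The promoters of *Mcm5* and *Mcm6* are shown because both genes passed the test of the interaction and because both hold, within 250 bases before the RefSeq start, the letters TTTGGCGC, a form of the motif bound by E2F factors. The letters, searched on both strands and in capitals below (GCGCCAAA on the other strand), were found in 0.42% of the 32851 promoters and in these 2 of the 32 proliferation genes with a promoter in the table. The windows are chr8:75109259-75109508 (plus strand) and chr1:128359706-128359955 (minus strand) in GRCm38.p6, 5′ to 3′ on the strand of the gene.
Mcm5: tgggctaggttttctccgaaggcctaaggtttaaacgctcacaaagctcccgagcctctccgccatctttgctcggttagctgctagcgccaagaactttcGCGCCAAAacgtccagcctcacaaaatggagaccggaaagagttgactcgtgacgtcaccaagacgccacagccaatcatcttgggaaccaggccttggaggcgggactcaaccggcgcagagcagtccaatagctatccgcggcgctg
Mcm6: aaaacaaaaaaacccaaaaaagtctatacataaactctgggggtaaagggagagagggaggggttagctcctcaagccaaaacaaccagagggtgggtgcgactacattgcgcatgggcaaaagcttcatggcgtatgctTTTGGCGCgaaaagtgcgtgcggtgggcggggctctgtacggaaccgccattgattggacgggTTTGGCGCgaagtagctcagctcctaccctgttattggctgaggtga
*Mcm5* holds 1 match and *Mcm6* holds 2, at 110 and 47 bases before the start. The interaction of *Mcm5* was 1.34 (adjusted p = 0.0092), and it missed the threshold without any one of the 3 E+P mice (adjusted p = 0.028, 0.028 and 0.041) and without the mouse block (adjusted p = 0.31).

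**Figure D4:**
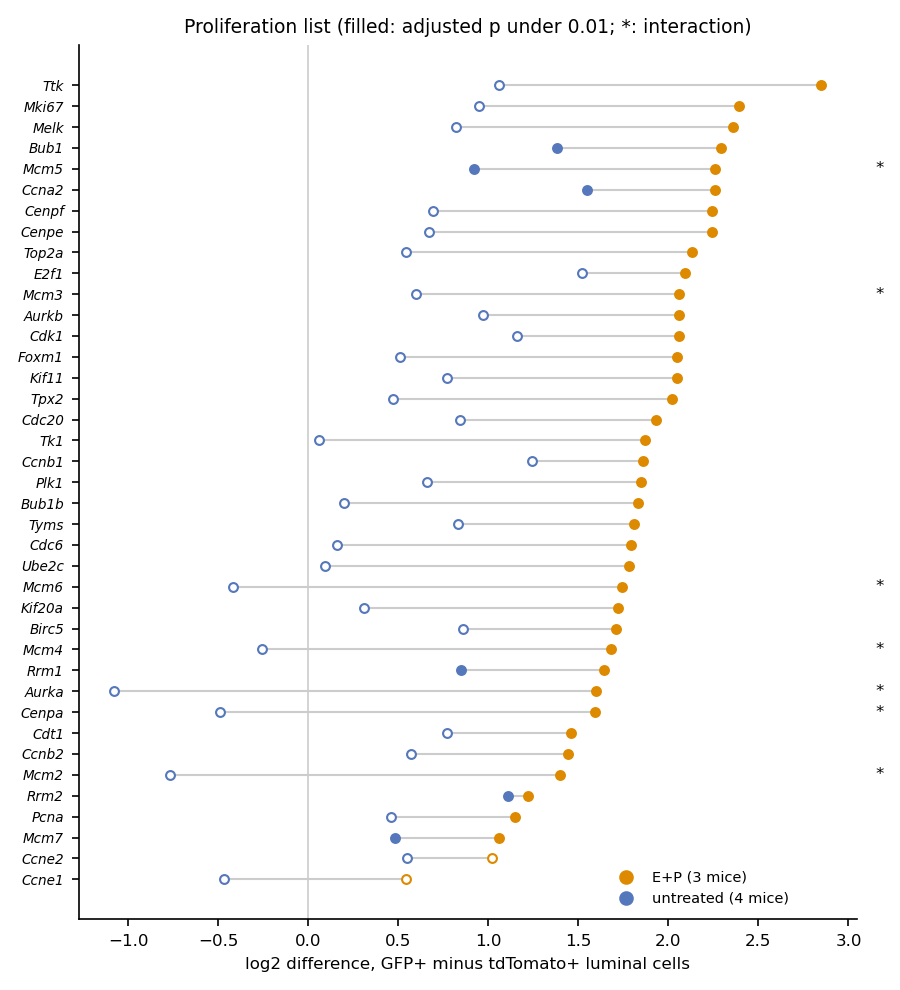
The log2 difference between GFP+ and tdTomato+ luminal cells for the 39 proliferation genes after E+P (orange) and in untreated mice (blue), filled at an adjusted p under 0.01, with an asterisk where the interaction passed. All 39 orange points lie above 0, 37 of them filled, while 6 of the blue points are filled.

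Receptors, ligands and feedback regulators of the EGF family were unevenly divided between the subsets. The regulators listed are *Errfi1*, *Lrig1*, *Spry1*, *Spry2* and *Spry4*. Of 20 genes, *Ereg* and *Nrg3* were below the filter. Of the 18 tested, 5 were higher in GFP+ cells, the regulators *Spry2* and *Spry4* among them, 6 were lower and 7 did not pass (median 0.69, 61.1% called against 27.3% of all genes). *Egfr*, the receptor of amphiregulin, was at 104, 117 and 143 CPM in GFP+ and 13.8, 10.9 and 8.93 CPM in tdTomato+ cells (3.45 ± 0.54, adjusted p = 0.0021), the opposite of *Areg*. *Erbb2* was at 123, 98.0 and 92.2 CPM against 282, 266 and 299 CPM (-1.45 ± 0.12, adjusted p = 3.8e-05). *Erbb3* differed by -0.46 ± 0.09 (adjusted p = 0.0035). The ligand genes *Tgfa*, *Epgn* and *Nrg4* were lower in GFP+ cells, at -1.41 ± 0.23 (adjusted p = 0.0011), -2.44 ± 0.30 (adjusted p = 2.3e-04) and -4.11 ± 0.60 (adjusted p = 8.7e-04), and the ligand gene *Btc* was higher (0.91 ± 0.23, adjusted p = 0.0095). Of the 11 calls, 7, 2 and 3 were kept without mouse 1, 2 or 3.

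In the Wnt pathway, 4 of the 5 ligand genes that passed were lower in GFP+ cells, and the R-spondin gene *Rspo1* and the receptor gene *Lgr6* were higher. Of 47 genes, 20 were below the filter. Of the 27 tested, 8 were higher in GFP+ cells, 6 lower and 13 did not pass (median 0.39, 51.9% called against 27.3% of all genes). Besides *Wnt4*, the ligand genes *Wnt5a* (-2.83 ± 0.57, adjusted p = 0.0065), *Wnt7b* (-1.80 ± 0.17, adjusted p = 6.7e-05) and *Wnt11* (-3.31 ± 0.40, adjusted p = 2.2e-04) were lower in GFP+ cells. *Wnt5b* was the ligand gene that was higher, at 123 ± 14.9 CPM (SD, n = 3) in GFP+ and 14.3, 16.1 and 10.7 CPM in tdTomato+ cells (3.17 ± 0.54, adjusted p = 0.0032). *Rspo1*, an R-spondin that amplifies Wnt signals, was at 151, 105 and 99.9 CPM in GFP+ and 17.9, 18.2 and 6.64 CPM in tdTomato+ cells (3.16 ± 0.28, adjusted p = 7.3e-05), and the R-spondin receptor gene *Lgr6* at 102, 134 and 122 CPM against 12.7, 14.4 and 6.70 CPM (3.46 ± 0.52, adjusted p = 0.0017). The subsets were fully apart for *Wnt5b*, *Rspo1* and *Lgr6*. *Lgr4*, another R-spondin receptor gene, overlapped at 75.3, 66.8 and 76.8 against 48.7, 72.5 and 83.6 CPM and did not pass. *Fzd7*, a Wnt receptor, differed by 2.08 ± 0.12 (adjusted p = 1.6e-05), *Axin2*, a target of canonical Wnt signalling, by 1.89 ± 0.23 (adjusted p = 2.4e-04) and *Fzd10*, another receptor, by -3.59 ± 0.57 (adjusted p = 0.0019). The secreted inhibitor gene *Sfrp2* was higher in GFP+ cells (3.86 ± 0.65, adjusted p = 0.0016) and *Dkk3* was lower (-2.94 ± 0.51, adjusted p = 0.0027). Of the 14 calls, 11, 7 and 7 were kept without mouse 1, 2 or 3.

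Notch genes were divided as well. Of 29 genes, 3 were below the filter, and of the 26 tested 6 were higher in GFP+ cells, 7 were lower and 13 did not pass (median -0.09). Over all genes tested, 27.3% were called, 12.1% as higher and 15.2% as lower. The members that were higher were the receptor gene *Notch1*, at 676, 798 and 804 CPM against 406, 359 and 280.0 CPM (1.14 ± 0.18, adjusted p = 0.0011), the coactivator gene *Maml2* (2.43 ± 0.11, adjusted p = 9.7e-06) and the target genes *Hey1*, *Hey2*, *Heyl* and *Nrarp*. Lower were the ligand gene *Jag1* (-1.89 ± 0.31, adjusted p = 0.0018) and the protease gene *Adam10*, at 170.3, 115 and 117 CPM against 657, 692 and 724 CPM (-2.39 ± 0.33, adjusted p = 0.0012), as were *Hes6*, *Maml3*, *Numbl* and *Psen2*, among others. *Notch2* and *Notch3* overlapped between the subsets and did not pass. Of the 13 calls, 10, 5 and 6 were kept without mouse 1, 2 or 3.

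Genes of PDGF signalling bear on the reporter, since the label follows the *Pdgfra* promoter. After E+P *Pdgfra* itself was low and similar in level, at 3.60, 7.32 and 7.84 CPM in GFP+ and 4.87, 5.23 and 5.69 CPM in tdTomato+ luminal cells (0.21 ± 0.40, adjusted p = 0.72), and the subsets overlapped. In untreated mice they did not overlap, with *Pdgfra* at 13.9, 28.7, 16.5 and 10.3 CPM in GFP+ and 5.06, 2.49, 6.48 and 3.29 CPM in tdTomato+ cells. The interaction passed for 0 of the 6 PDGF genes. Of the 6 PDGF genes, 2 were higher in GFP+ cells, 0 were lower and 4 did not pass (median 0.92), so that 33.3% were called against 27.3% of all genes. *Pdgfb* was at 45.5, 63.2 and 105 CPM against 28.2, 31.7 and 36.4 CPM (1.08 ± 0.24, adjusted p = 0.0066), and *Pdgfc* at 88.8, 114 and 97.6 CPM against 59.4, 57.2 and 60.7 CPM (0.76 ± 0.18, adjusted p = 0.0091). Both calls were lost without any one of the 3 mice.

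Adhesion genes were lower in GFP+ cells more often than higher. Of 18 integrin and laminin genes, 9 were lower, 3 were higher and 6 did not pass (median -0.56, 66.7% called against 27.3% of all genes). *Lama5*, a laminin chain gene, was at 271, 191 and 198 CPM against 1203, 1078 and 1014 CPM (-2.33 ± 0.20, adjusted p = 5.3e-05), and *Lamc1* differed by -1.82 ± 0.18 (adjusted p = 1.0e-04). The laminin chain genes *Lama3* and *Lamb3* overlapped between subsets and did not pass. *Itgb8*, an integrin subunit that activates TGF-beta, was the strongest in the other direction, at 187, 202 and 273 CPM against 23.7, 27.4 and 15.7 CPM (3.32 ± 0.41, adjusted p = 8.3e-04), followed by *Itgb3* and *Itga2*, which are progenitor markers and are counted in that list too. Of the 12 calls, 8, 8 and 9 were kept without mouse 1, 2 or 3.

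Of 18 tight junction and polarity genes, 7 were lower in GFP+ cells, 2 were higher and 9 did not pass (median -0.27). Over all genes tested, 27.3% were called, 15.2% as lower and 12.1% as higher. Scaling by library size alone left 2 of the 18 lower and 3 higher. *Cldn4* was at 195, 198 and 293 CPM in GFP+ and 588, 647 and 558 CPM in tdTomato+ cells (-1.41 ± 0.18, adjusted p = 3.7e-04), and *Cldn10* differed by -2.84 ± 0.49 (adjusted p = 0.0025). *Tjp3*, a scaffold protein of tight junctions, was higher, at 128, 147 and 129 CPM against 63.9, 56.5 and 55.2 CPM (1.20 ± 0.10, adjusted p = 4.2e-05), whereas *Tjp1* overlapped between subsets (0.04 ± 0.09, adjusted p = 0.78). Of the 9 calls, 3, 3 and 4 were kept without mouse 1, 2 or 3. Of 16 regulators and markers of epithelial and mesenchymal state, 3 were below the filter. Of the 13 tested, 2 were higher, 4 lower and 7 did not pass (median 0.16, 46.2% called against 27.3% of all genes). The epithelial cadherin gene *Cdh1* was at 829, 776 and 964 CPM against 778, 743 and 763 CPM (0.16 ± 0.09, adjusted p = 0.19). *Cdh2*, the neural cadherin gene, was at 3.15, 0.472 and 0.0917 CPM in GFP+ and 21.9, 27.8 and 18.7 CPM in tdTomato+ cells (-4.84 ± 0.93, adjusted p = 0.0068), and *Snai1*, a repressor of epithelial genes, at 1.88, 1.00 and 1.10 CPM against 12.2, 20.1 and 13.6 CPM (-3.53 ± 0.43, adjusted p = 2.2e-04). The mesenchymal filament gene *Vim* was at 17.3, 13.2 and 15.2 CPM against 5.05, 2.42 and 1.33 CPM and did not pass (2.54 ± 0.78, adjusted p = 0.035). Of the 6 calls, 3, 2 and 2 were kept without mouse 1, 2 or 3.

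Innate defence genes leaned towards GFP+ cells. Of 22 genes, 5 were below the filter. Of the 17 tested, 8 were higher, 3 lower and 6 did not pass (median 0.38, 64.7% called against 27.3% of all genes). Complement *C3* was at 696, 653 and 778 CPM in GFP+ and 164, 195 and 204 CPM in tdTomato+ cells (1.92 ± 0.26, adjusted p = 7.9e-04). *Lbp*, which binds lipopolysaccharide, was at 21.1, 25.9 and 20.6 CPM against 3.03, 5.18 and 3.29 CPM (2.57 ± 0.39, adjusted p = 8.4e-04), and the receptors *Tlr2* and *Tlr4* differed by 1.48 ± 0.32 (adjusted p = 0.0052) and 0.99 ± 0.22 (adjusted p = 0.0057). The chemokine gene *Cxcl15* was the strongest in the other direction, at 41.1, 15.4 and 10.2 CPM against 338, 626 and 647 CPM (-4.81 ± 0.94, adjusted p = 0.0056). Of the 11 calls, 8, 4 and 3 were kept without mouse 1, 2 or 3.

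Among 22 interferon response and MHC class I genes, 4 were higher in GFP+ cells, 6 were lower and 12 did not pass (median 0.15). This is 45.5% called against 27.3% of all genes. *B2m* (ENSMUSG00000060802.8, chr2:122147686-122153083), the light chain of MHC class I, was at 655, 261 and 339 CPM in GFP+ and 3026, 2302 and 3034 CPM in tdTomato+ cells (-2.84 ± 0.20, adjusted p = 3.2e-05). The heavy chain genes *H2-K1* and *H2-D1*, which are similar in sequence so that their reads may be split between them, differed by -1.04 ± 0.22 (adjusted p = 0.0051) and -1.68 ± 0.24 (adjusted p = 8.9e-04). The interferon-induced genes went both ways, with *Usp18* at -3.49 ± 0.53 (adjusted p = 0.0015) and *Bst2* at -2.32 ± 0.40 (adjusted p = 0.0019), against *Ifi27* at 1.70 ± 0.15 (adjusted p = 4.4e-05) and *Irf7* at 1.11 ± 0.21 (adjusted p = 0.0023). Of the 10 calls, 8, 3 and 4 were kept without mouse 1, 2 or 3.

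Among genes of at least 10.0 CPM in the higher subset, those with the largest differences towards GFP+ cells were *Col9a1*, *G0s2*, *Scube1*, *Gprasp2*, *Slc5a1*, *Csn1s1*, *Fut9* and *Cyp24a1*, from 4.55 ± 0.46 down to 4.03 ± 0.40. *Col9a1*, a chain of type IX collagen, was at 25.6, 35.4 and 36.0 CPM in GFP+ and 1.75, 2.13 and 0.531 CPM in tdTomato+ cells (adjusted p = 1.7e-04). *Slc5a1*, the sodium-glucose cotransporter, was at 28.3, 33.8 and 35.5 CPM against 1.47, 2.23 and 1.65 CPM (4.19 ± 0.48, adjusted p = 4.5e-04). *Cyp24a1*, which inactivates vitamin D, was at 54.3, 72.3 and 91.4 CPM against 3.12, 5.37 and 4.78 CPM (adjusted p = 1.9e-04). In the other direction stood *Tent5d*, *Fgf14*, *Hs3st6*, *Penk*, *Fer1l4*, *Nrxn3*, *Gm12873* and *Slco4c1*, from -6.37 ± 0.79 to -5.29 ± 0.59. All but *Penk* lay at 2.11 CPM or less in GFP+ cells, in part under the floor of 3 counts, so the fitted size of these differences depends on few reads. *Penk*, the gene of the enkephalin precursor, was at 229, 8.62 and 16.7 CPM in GFP+ and 1922, 1009 and 1235 CPM in tdTomato+ cells (-5.43 ± 0.86, adjusted p = 0.0023), with GFP+ cells of mouse 1 well above those of mice 2 and 3. *Gm12873* is annotated as an unprocessed pseudogene and may share reads with a similar copy.

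The most abundant genes with at least a 2-fold difference were *Thbs1*, *Igfbp5*, *Mki67*, *Ehf* and *Nfib* in GFP+ cells and *Gpx3*, *B2m*, *Plec*, *Ezr* and *Ktn1* in tdTomato+ cells. *Thbs1* (ENSMUSG00000040152.8, chr2:118111876-118127133), which encodes thrombospondin-1, was at 3727, 4436 and 6627 CPM in GFP+ and 504, 657 and 434 CPM in tdTomato+ cells (3.19 ± 0.50, adjusted p = 0.0022). *Igfbp5*, which binds insulin-like growth factors, was at 1344, 1944 and 2109 CPM against 341, 425 and 353 CPM (2.25 ± 0.45, adjusted p = 0.0065). *Gpx3* (ENSMUSG00000018339.11, chr11:54902453-54910377), a secreted glutathione peroxidase, was at 1193, 416 and 317 CPM in GFP+ and 9272, 11253 and 13358 CPM in tdTomato+ cells (-4.39 ± 0.80, adjusted p = 0.0043). Per kilobase of exon its level was 6229.8 CPM in tdTomato+ and 354 CPM in GFP+ cells. *Ezr*, which links membrane and actin at the apical surface, was at 594, 376 and 344 CPM against 2479, 2162 and 2572 CPM (-2.50 ± 0.18, adjusted p = 2.8e-05).

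Part of the difference between the subsets was present without hormone treatment as well. In untreated mice, 2745 genes (16.6% of those tested) passed, 1281 (7.75%) higher and 1464 (8.85%) lower in GFP+ cells. Of these, 1822 were also called after E+P, which is 66.4% of the untreated and 40.4% of the E+P calls, 1783 of them in the same direction and 39 in the opposite one. The libraries of these comparisons come from different mice but share the estimate of the spread. The interaction passed for 477 genes (2.88%), 177 (1.07%) with a more positive and 300 (1.81%) with a more negative difference after E+P. Of the 477, 321 passed after E+P and not in untreated mice, 79 passed in both in the same direction, 39 in both in opposite directions, 37 in untreated mice alone and 1 in neither. Scaling by library size alone gave 276 positive and 219 negative, around a median shifted to 0.13. The count was 262, 34 and 57 without E+P mouse 1, 2 or 3, and 140, 859, 326 and 255 without untreated mouse 1, 2, 3 or 4. For hormone receptor and progenitor genes the interaction passed for 0 of 11 and 0 of 14, with median interactions of -1.32 and 0.92, which does not show that the difference was equal with and without hormone.

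*Fkbp5* (ENSMUSG00000024222.16, chr17:28399094-28517527), a cochaperone of steroid receptors that progesterone and glucocorticoids induce, reversed. After E+P it was at 106, 54.2 and 48.6 CPM in GFP+ and 331, 206 and 263 CPM in tdTomato+ cells (-2.00 ± 0.18, adjusted p = 6.1e-05). In untreated mice it was at 24.8, 26.1, 27.1 and 59.5 CPM against 13.8, 9.23, 17.3 and 29.0 CPM (1.00, adjusted p = 0.0024), and the interaction was -3.00 (adjusted p = 4.3e-04). The untreated difference missed the threshold without untreated mouse 1 (adjusted p = 0.011) or 4 (adjusted p = 0.013), and without the mouse block (0.98, adjusted p = 0.082). Levels in tdTomato+ cells after E+P lay above those of all untreated libraries, those in GFP+ cells overlapped with the untreated range, and the order of the subsets was exchanged. *Esrrg*, an orphan receptor related to the estrogen receptors, went the other way, at 8.33, 13.9 and 13.2 CPM against 0.735, 2.37 and 1.81 CPM after E+P (2.87 ± 0.23, adjusted p = 3.6e-05) and at 13.9, 6.36, 14.2 and 11.1 CPM against 33.8, 24.2, 30.9 and 34.4 CPM in untreated mice (-1.47, adjusted p = 0.0011), an interaction of 4.34 (adjusted p = 4.3e-04). *Nr3c2*, the mineralocorticoid receptor, showed the same pattern, at 19.7, 29.6 and 28.4 CPM against 4.59, 7.41 and 4.09 CPM after E+P and at 31.2, 37.4, 46.5 and 31.4 CPM against 77.4, 72.6, 64.4 and 72.5 CPM in untreated mice (interaction 3.28, adjusted p = 4.3e-04). For *Esrrg* and *Nr3c2* the tdTomato+ cells held the larger level in untreated mice and the smaller one after E+P.

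Of the 18 integrin and laminin genes, the interaction passed as more negative after E+P for 5, as more positive for 0 and not for 13. Over all genes it passed as more negative for 1.81% and as more positive for 1.07%. The 5 included *Itga3*, *Itgb5*, *Lama3* and *Lamc1*. *Lama3* passed in untreated mice, at 124.2, 144, 65.4 and 159.6 CPM against 32.6, 20.4, 19.6 and 54.3 CPM (2.00, adjusted p = 8.1e-04), and not after E+P, with an interaction of -2.46 (adjusted p = 0.0017). Among the 22 interferon response and MHC class I genes, the interaction passed for 1 in each direction. *B2m*, the negative one, was at 229, 120.3, 199.8 and 224 CPM against 344, 196, 239 and 416 CPM in untreated mice (-0.61, adjusted p = 0.02), an interaction of -2.23 (adjusted p = 0.0018). The interactions of *Lama3* and *B2m* missed the threshold without E+P mouse 2 (adjusted p = 0.018 and 0.017) and without E+P mouse 3 (adjusted p = 0.016 and 0.014), whereas those of *Esrrg* and *Nr3c2* passed under each alternative run and that of *Fkbp5* under each except the fit without the mouse block (-2.92, adjusted p = 0.014).

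**Figure D5:**
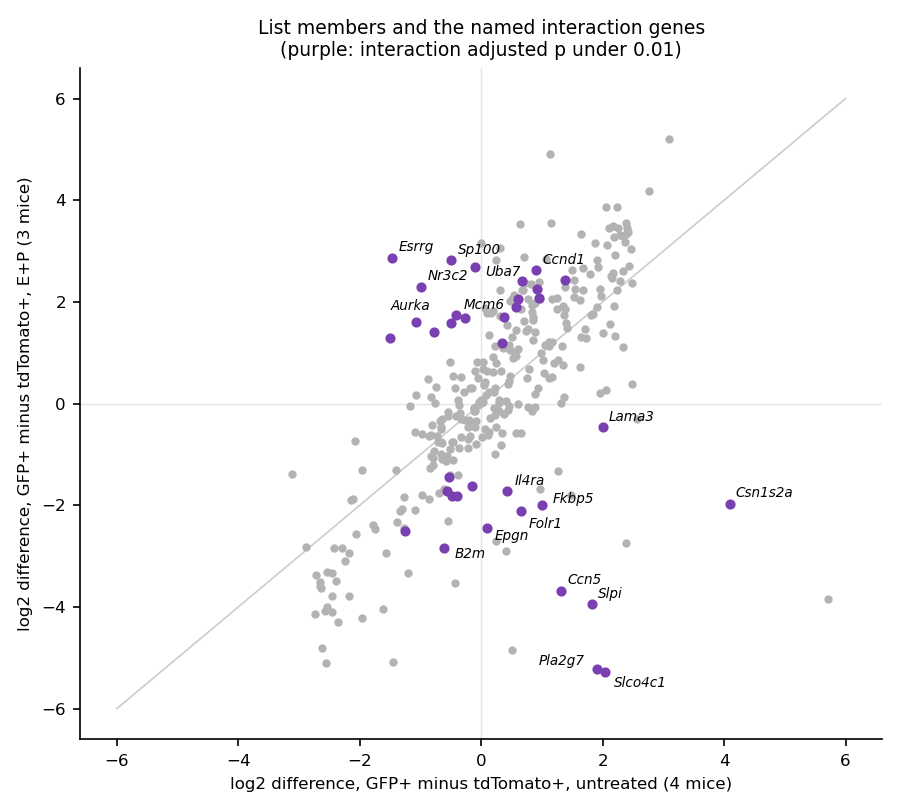
The log2 difference between GFP+ and tdTomato+ luminal cells after E+P (vertical) against that in untreated mice (horizontal) for the members of the 20 gene lists that are reported and the named interaction genes, with a grey line of equal differences and genes whose interaction passed in purple. *Fkbp5*, *Ccn5*, *Slpi* and *Csn1s2a* lie in the lower right, above 0 in untreated mice and below 0 after E+P, and *Esrrg* and *Nr3c2* lie in the upper left.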

How the data were processed

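RNA was sequenced from FACS-sorted GFP+ and tdTomato+ luminal cells of individual mice. According to the methods, total RNA (RIN differing widely between samples) was made into libraries with a stranded low-input kit, with a fragmentation time adapted to RNA quality, and the authors aligned reads and counted them per gene with STAR 2.5.2a on GRCm38.p5 with GENCODE. The authors deposited raw read counts per gene, without normalization. Whether counting used strand is not given in the sources used here, so overlapping sense and antisense genes cannot be told apart. Gene names and coordinates came from GENCODE M21, in which 50376 of 50600 gene IDs were found, and promoter sequences from RefSeq (GRCm38.p6).

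The 14 luminal libraries were scaled by TMM and filtered with filterByExpr (16538 genes kept), and fitted with edgeR 4.0.16 in R 4.3.3 (quasi-likelihood F-test, robust, two-sided) with the mouse as a block and 5 residual degrees of freedom. Fractions were paired because the labels give each animal a number, and deviations from group means correlated within the E+P mice at 0.213, 0.157 and 0.153. Genes were called at a Benjamini-Hochberg adjusted p of 0.01 over all genes tested. For their own tests the authors used limma. The SE is the log2 difference divided by the square root of F. Alternatives were DESeq2 1.42.0, limma 3.58.1 (voom), DESeq2 size factors, library size only, no low-count filter, no block, only the groups compared, a threshold of 0.05 and leaving out each mouse. Fits were tested on simulated data. Named genes are up to 8 per direction with the largest difference and up to 5 per direction that were most abundant with at least a 2-fold difference (both called, the first with at least 10.0 CPM and the same side in 3 of 3 mice), up to 5 per direction of the interaction, and members of 20 hand-written pathway lists. The members and lists were chosen with earlier results of these data known. A few list members are counted but not reported here by name. Stromal libraries served for marker levels only.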

Additional observations from a re-analysis of the deposited data

Results flagged for a closer look

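The difference between GFP+ and tdTomato+ luminal cells itself differed between E+P-treated and untreated mice in 477 genes by the interaction in the edgeR fit (adjusted p under 0.01), and the values below are interactions of list members and named genes on the log2 scale. Of the 40 interactions of named genes that passed, marker genes included, 21, 7 and 9 still passed without E+P mouse 1, 2 or 3. The hormone-induced cochaperone gene *Fkbp5* was at -3.00 and the cyclin gene *Ccnd1* at 1.72. The proliferation genes *Aurka*, *Mcm2*, *Mcm3*, *Mcm4*, *Mcm5*, *Mcm6* and *Cenpa* were at 2.68, 2.17, 1.46, 1.94, 1.34, 2.17 and 2.08. The largest positive values were those of *Esrrg*, *Sp100*, *Nr3c2*, *Klhl3* and *Uba7*, at 4.34, 3.31, 3.28, 2.78 and 2.78. Among members of the secretory, prolactin and lipid lists, *Folr1* was at -2.77, *Jak2* at -1.27, *Il4ra* at -2.14 and *Elovl6* at 1.74. Among signalling genes, *Maml2* was at 1.05, *Epgn* at -2.52, *Erbb2* at -0.92, *Fzd7* at 1.12 and *Rnf43* at 1.32. The adhesion genes *Itga3*, *Itgb5*, *Lama3* and *Lamc1* were at -1.17, -1.41, -2.46 and -1.34, and the junction gene *Tjp3* at 0.86. The immune genes *B2m* and *Ifi27* were at -2.23 and 1.32, and the stress gene *Atf3* at -1.47.

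The largest negative interactions were those of *Slco4c1* (-7.33), *Pla2g7* (-7.14), *Csn1s2a* (-6.06), *Slpi* (-5.76) and *Ccn5* (-4.99). The organic anion transporter gene *Slco4c1* was at 22.8, 11.6 and 14.7 CPM in tdTomato+ cells after E+P and at 0.416 CPM or less in all 8 untreated libraries, and *Pla2g7*, a lipoprotein-associated phospholipase gene, at 8.54, 17.2 and 27.4 CPM and at 0.832 CPM or less. With untreated levels at or near the floor of 3 counts in most libraries, the fitted size of both interactions depends on few reads. *Csn1s2a* was at 8.57 CPM in GFP+ and 0.470 CPM in tdTomato+ cells of untreated mouse 4 and at 0.0631 CPM or less in the other 6 untreated libraries, and without that mouse its interaction was -3.73 (adjusted p = 0.32). *Slpi*, a protease inhibitor of mucosal surfaces, was at 8.10, 1.06 and 1.51 CPM in GFP+ and 66.5, 39.3 and 22.8 CPM in tdTomato+ cells after E+P, and at 0.624, 6.81, 2.52 and 4.07 CPM against 0.291, 0.337, 1.12 and 1.92 CPM in untreated mice. *Ccn5*, a secreted matrix protein gene, was at 9.53, 4.49 and 3.53 CPM against 54.6, 88.4 and 66.6 CPM after E+P, and at 8.94, 20.5, 16.0 and 11.2 CPM against 4.25, 4.04, 10.2 and 4.66 CPM in untreated mice.

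In the untreated groups of 4, a single library stood apart in summed marker levels by Dixon's criterion: tdTomato+ cells with a fibroblast sum of 85.7 CPM, tdTomato+ cells with an endothelial sum of 148 CPM, and GFP+ and tdTomato+ cells with skeletal muscle sums of 41.9 and 54.4 CPM. Chance alone gives such a flag in about 1 group in 20, and groups of 3, such as the E+P libraries, were not tested.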

How the results depend on the processing

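No called gene named in the text reversed under any alternative run. Without the replicate block, in which the fractions of a mouse are not paired, 4206 genes were called after E+P, 2547 in untreated mice and 376 for the interaction, against 4513, 2745 and 477. An adjusted p of 0.05 gave 6913, 5496 and 1454. For untreated mice, a fit of those 8 libraries alone with the replicate block gave 745. For the interaction, DESeq2 gave 1271 and no low-count filter 909. Leaving out a mouse gave 1853 to 5181 calls after E+P, 915 to 2333 in untreated mice and 34 to 859 for the interaction. Untreated calls fell past 1.5-fold without E+P mouse 2 (1646) and without untreated mouse 1 (915) or 4 (940). Of 232 named genes called after E+P, 61 missed the threshold without the block, 64 without the low-count filter, and 74, 125 and 120 without E+P mouse 1, 2 or 3. Each of these last fits held fewer mice. Counts under about 3 per library limit the fold of the lowest genes.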

Other observations

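Retinoid genes were divided between the subsets. Of 16 genes, 5 were below the filter. Of the 11 tested, 3 were higher in GFP+ cells, 2 lower and 6 did not pass (median 0.43, 45.5% called against 27.3% of all genes). Besides *Aldh1a3*, *Crabp2*, which carries retinoic acid to the nucleus, was at 26.0, 29.9 and 30.5 CPM in GFP+ and 11.9, 10.5 and 10.9 CPM in tdTomato+ cells (1.38 ± 0.28, adjusted p = 0.0036), and the receptor genes *Rarg* and *Rara* differed in opposite directions, by 0.43 ± 0.10 (adjusted p = 0.0065) and -0.76 ± 0.14 (adjusted p = 0.0018). Without E+P mouse 1, 2 or 3, 1, 0 and 1 of the 5 calls were kept.

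Of 19 immediate early and dissociation stress genes, *Jund* was below the filter, and 4 were higher in GFP+ cells, 1 was lower and 13 did not pass (median -0.00), so that 27.8% were called against 27.3% of all genes. *Fos* was at 450.0, 689 and 907 CPM in GFP+ and 661, 1181 and 1174 CPM in tdTomato+ cells, with mouse 1 lowest in both, and did not pass (-0.57 ± 0.19, adjusted p = 0.043). *Egr1* was at 262, 523 and 801 CPM against 136, 251 and 217 CPM (1.30 ± 0.24, adjusted p = 0.0031) and *Atf3* at 165, 234 and 346 CPM against 474, 936 and 901 CPM (-1.63 ± 0.17, adjusted p = 1.2e-04). Of 7 MHC class II genes, 4 were tested, and *H2-DMa* alone passed, as lower in GFP+ cells (-3.34 ± 0.59, adjusted p = 0.0016). This is 1 of 4 called, against 27.3% of all genes. Of 13 mitochondrially encoded protein-coding genes, 11 were tested, 0 were higher, 1 was lower and 10 did not pass (median -0.09). This is 9.09% called against 27.3% of all genes.

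*Csn1s1* and *Csn2* varied more between mice than between subsets in untreated mice too, where untreated mouse 4 had 152 and 24.7 CPM of *Csn1s1* and 92.8 and 19.8 CPM of *Csn2* in GFP+ and tdTomato+ cells, against at most 2.08 and 0.139 CPM in the other 6 untreated libraries.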
